A study of Mus musculus with 22 samples.

Results

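Clusterin and 7 other genes of secreted acute-phase and matrix proteins were followed through mouse pancreatic tumors and cancer cell lines with and without microRNA-21. The 8 genes were Clu, Lcn2, Saa1, Saa2, Saa3, Spp1, C3 and Hp, and all of them were found by symbol among the 53342 genes of the count tables. They were chosen from earlier results of the same data, because Clu was the most counted gene of many libraries and Saa3 appeared in tumors only, so the level of Clu and the contrast of tumor with line are described here without a test. RNA sequencing counts were available for 22 libraries of untreated Bl6 KPC mice, in 4 groups: 8 tumors without microRNA-21 (KO tumors), 4 tumors with it (WT tumors), 5 cancer cell lines without it (KO lines) and 5 with it (WT lines). All groups share the K-Ras-driven model with recombined K-Ras and p53 alleles, and the Cre driver and the ages of the animals are not given in the sources used here. Tumors were whole, snap-frozen tissue of symptomatic animals. Each line was grown out of 1 tumor, passaged at least 8 times to lose fibroblasts, and sampled at passage 10 to 14 in 5% serum. By their titles, 5 animals gave both a tumor and a line.

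Acute-phase proteins are plasma proteins that the liver releases in inflammation, mainly under the cytokines IL-6 and IL-1, which act through STAT3, NF-κB and the C/EBP factors. Several are also made outside the liver by epithelia, macrophages, adipocytes and fibroblasts. Clusterin (Clu) is an extracellular chaperone and complement inhibitor that rises in injured and inflamed pancreas, lipocalin 2 (Lcn2) binds bacterial iron carriers, and osteopontin (Spp1) is a matrix protein and integrin ligand. C3 is the central complement protein, haptoglobin (Hp) binds free hemoglobin, and the serum amyloid A proteins (Saa1, Saa2 and Saa3) travel on lipoproteins. In mice Saa1 and Saa2 are the liver forms and Saa3 is the form made in other tissues.

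MicroRNA-21 is the RNA that the KO animals lack. Its mature 5p form spans 22 bases (RefSeq, build GRCm38.p6, chr11:86584120-86584141, minus strand) and is shown with its seed, bases 2 to 8, in capitals.
mmu-miR-21a-5p: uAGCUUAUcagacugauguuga
The match to this seed, ATAAGCT, was present in the longest annotated 3′ UTR of 7.52% of 21072 genes and in 0 of the 8 genes. The match to bases 2 to 7 followed by A, TAAGCTA, was present in 6.83% of the genes and once in Saa3, and in none of the other 7. The host RNA gene Mir21a had 0 counts in all 22 libraries, WT included, so these counts check no genotype label.

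The stretches upstream of Saa3, C3 and Lcn2, on which the results turn, are shown because the C/EBP factors named above act on acute-phase promoters. Each has 250 bases up to the annotated start, 5′ to 3′ on the strand of the gene (RefSeq, build GRCm38.p6), for Saa3 at chr7:46715677-46715926, for C3 at chr17:57228137-57228386 and for Lcn2 at chr2:32387740-32387989, all on the minus strand. These starts can differ from the gene spans given below, which are of GENCODE. The Lcn2 window lies inside the span of its gene, and the Saa3 window overlaps the span of its gene. Capitals mark matches to the C/EBP pattern TTNNGNAA on either strand.
Saa3: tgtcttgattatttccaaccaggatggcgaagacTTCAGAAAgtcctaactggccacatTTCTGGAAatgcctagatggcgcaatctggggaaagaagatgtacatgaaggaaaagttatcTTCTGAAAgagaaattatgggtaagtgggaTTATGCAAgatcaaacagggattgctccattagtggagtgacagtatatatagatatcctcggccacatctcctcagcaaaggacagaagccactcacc
C3: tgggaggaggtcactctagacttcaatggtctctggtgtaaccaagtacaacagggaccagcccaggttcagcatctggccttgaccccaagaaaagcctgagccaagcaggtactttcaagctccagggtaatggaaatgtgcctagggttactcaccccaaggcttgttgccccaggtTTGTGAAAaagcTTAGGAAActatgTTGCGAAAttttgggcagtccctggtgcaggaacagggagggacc
Lcn2: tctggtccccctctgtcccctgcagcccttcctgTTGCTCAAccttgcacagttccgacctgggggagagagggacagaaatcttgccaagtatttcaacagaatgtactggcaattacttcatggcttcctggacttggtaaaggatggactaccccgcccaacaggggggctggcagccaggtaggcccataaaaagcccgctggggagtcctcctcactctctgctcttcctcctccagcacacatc
Saa3 held 4 such matches, C3 held 3 and Lcn2 held 1, and the pattern occurred in 36.8% of the 32851 promoter windows of the table. It also occurred in Saa1, Saa2 and the later of the 2 Spp1 starts. A STAT pattern (TTCNNNGAA, in 7.02% of windows), an AP-1 pattern (TGANTCA, 6.75%) and the NF-κB consensus (3.90%) had no match in any of these windows. Clu and Hp had no entry, so 6 of the 8 genes were matched. A match describes letters in a window and does not show binding.

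Library totals ran from 24547650 to 31118113 counts. Levels are CPM, counts scaled by library total and TMM factor. By library total alone, without the TMM factor, 0 counts in the smallest library leave up to 0.122 CPM possible by counting error (3 counts). Defining markers of ductal epithelium were counted in every library, with sums of 4171 to 8446 CPM for KO tumors, 6542 to 14458 for WT tumors, 8959 to 11681 for KO lines and 7536 to 14757 for WT lines. The sums hide differences within the list. Cldn4 stood at 0.111 to 31.0 CPM in lines and 38.2 to 270 CPM in tumors, and Epcam at 4.97 to 86.4 and 248 to 1155 CPM. Krt19 stood at 691 to 4315 CPM in lines and 539 to 1859 CPM in tumors. Fibroblast markers summed to 1982 to 12777 CPM in the KO tumors and 3000.0 to 8069 in the WT tumors, against 3.25 to 7.51 in KO lines and 2.27 to 16.9 in WT lines. Of 10 macrophage markers, Adgre1, C1qa, C1qb, C1qc, Cd163 and Marco were at 0 in all lines, while Mrc1 (6.96 to 159 CPM) and Cd68 (1.41 to 4.86 CPM) were counted in every line, so that the list summed to 9.46 to 162 CPM in lines. In whole tumors, fewer cells of a type and less RNA per cell cannot be told apart.

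**Figure D1:**
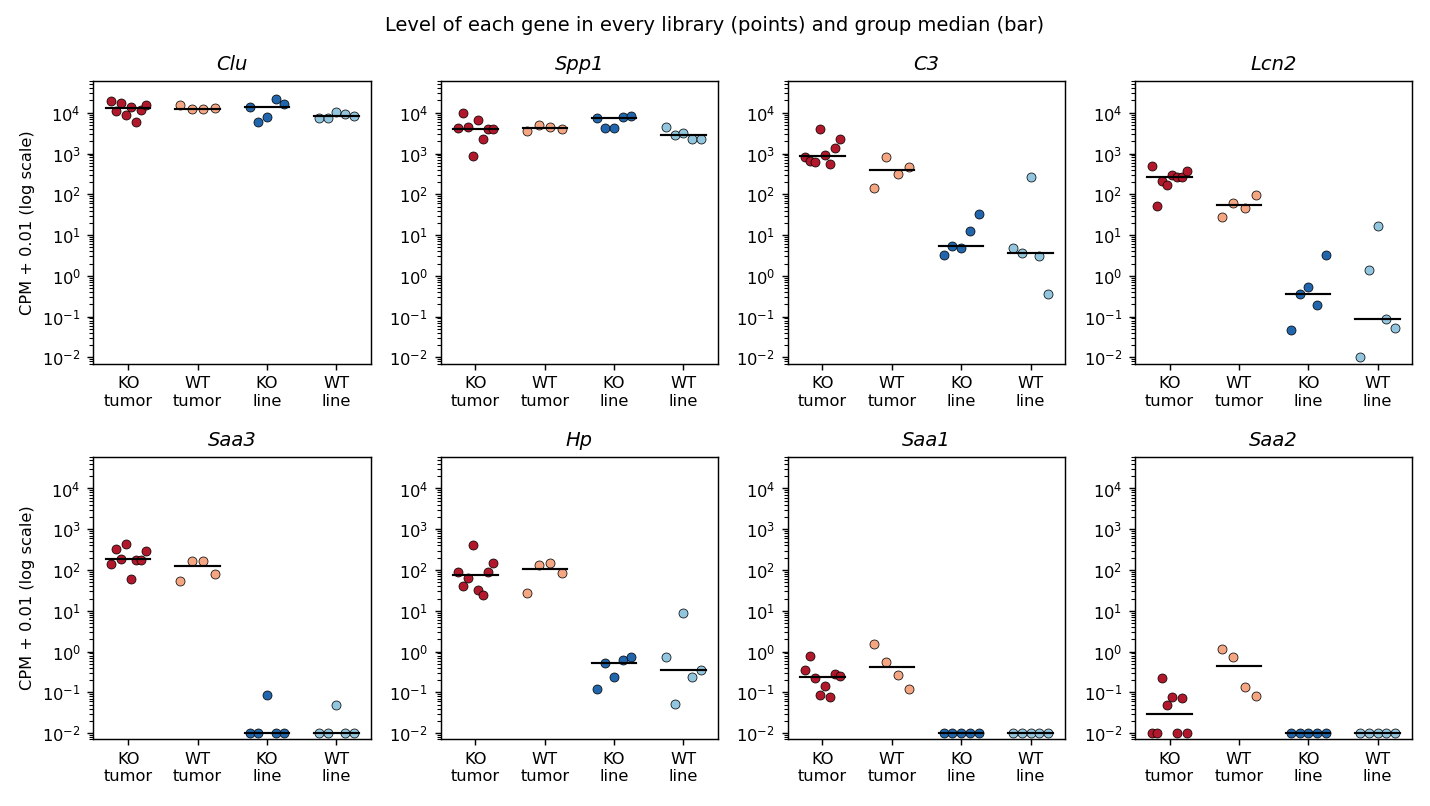
Level of each of the 8 genes in CPM + 0.01 on a log axis, for KO tumors, WT tumors, KO lines and WT lines (8, 4, 5 and 5 libraries); points are libraries and bars are group medians. Clu and Spp1 stand at a similar height in all groups, Saa3 lies between 53.6 and 423 CPM in tumors and at 0 to 2 counts in lines, and WT line 3 is the high point among lines for C3, Lcn2 and Hp.

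Clu and Spp1 were the abundant pair, in cancer lines and in whole tumors alike. Clu (ENSMUSG00000022037.15, mm10 chr14:65968483-65981547, plus strand) was the most counted gene in all 12 tumors and in 6 of 10 lines, and took 0.573% to 2.12% of all counts. Gm13340 was the most counted gene in the other 4 lines. Per length of merged exons, Clu ranked 4 to 9 among all genes in tumors and 3 to 15 in lines, so its first place by count did not hold per length.

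In KO tumors Clu had a lowest level of 5784 CPM, a median of 13082 and a highest of 19581, against 15790.3, 12481, 12324 and 12787 CPM in the WT tumors. The KO tumors lay on both sides of the narrow WT range. The group means were 12932 ± 4520 CPM in KO tumors (SD, n = 8) and 13345 ± 1641 in WT tumors (n = 4). Among lines, Clu stood at 13759, 5922, 7904, 21454 and 16846 CPM in KO lines, against 7601, 7243, 10475, 9157 and 8422 CPM in WT lines. KO lines 1, 4 and 5 lay above every WT line and KO line 2 below every WT line. The line means were 13177 ± 6379 CPM in KO and 8580 ± 1294 in WT (SD, n = 5 each), with a wider spread among KO lines that was not tested. All 4 WT tumors lay above all 5 WT lines for Clu, while KO tumors and KO lines overlapped.

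Osteopontin, Spp1 (ENSMUSG00000029304.14, chr5:104435118-104441050, plus strand), had a lowest level of 855 CPM, a median of 4086 and a highest of 9780.0 in KO tumors, against 3569, 4888, 4366 and 3928 CPM in WT tumors. KO tumor 4 gave the lowest value and KO tumor 2 the highest. In the KO lines Spp1 stood at 7248, 4144, 4315, 7934 and 8216 CPM, against 4479, 2917, 3122, 2337 and 2299 CPM in the WT lines. KO lines 1, 4 and 5 exceeded every WT line, and KO lines 2 and 3 lay below WT line 1. The same 3 KO lines were thus the highest for Clu and for Spp1. Part of the Spp1 exons (309 bases) overlaps Gm42793 on the same strand, whose counts were 0.159% of those of Spp1.

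For animals that gave both a tumor and a line, Clu and Spp1 differed by less than C3 and Lcn2 between the 2 materials. Clu had 17254 CPM in the tumor and 16846 in the line of KPC2157 (KO tumor 3 and KO line 5), and 10788 in the tumor and 13759 in the line of KPC21171 (KO tumor 2 and KO line 1). In the 3 WT animals the tumor was above the line for Clu, at 15790.3 against 7601 CPM in KPC190, 12481 against 7243 in KPC202 and 12324 against 9157 in KPC232. Spp1 was higher in the line of KPC190 and of KPC2157 (8216 CPM, against 4468 in the tumor). It was higher in the tumor of KPC202, KPC21171 and KPC232 (4366 CPM in KPC232, against 2337 in the line). C3 was lower in the line of all 5 animals, from 604 CPM in the tumor and 32.1 in the line of KPC2157 to 843 in the tumor and 3.54 in the line of KPC202. Lcn2 was lower in all 5 lines too, with 211 CPM in the tumor and 3.23 in the line of KPC2157 and 27.7 in the tumor and 0 counts in the line of KPC190.

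**Figure D2:**
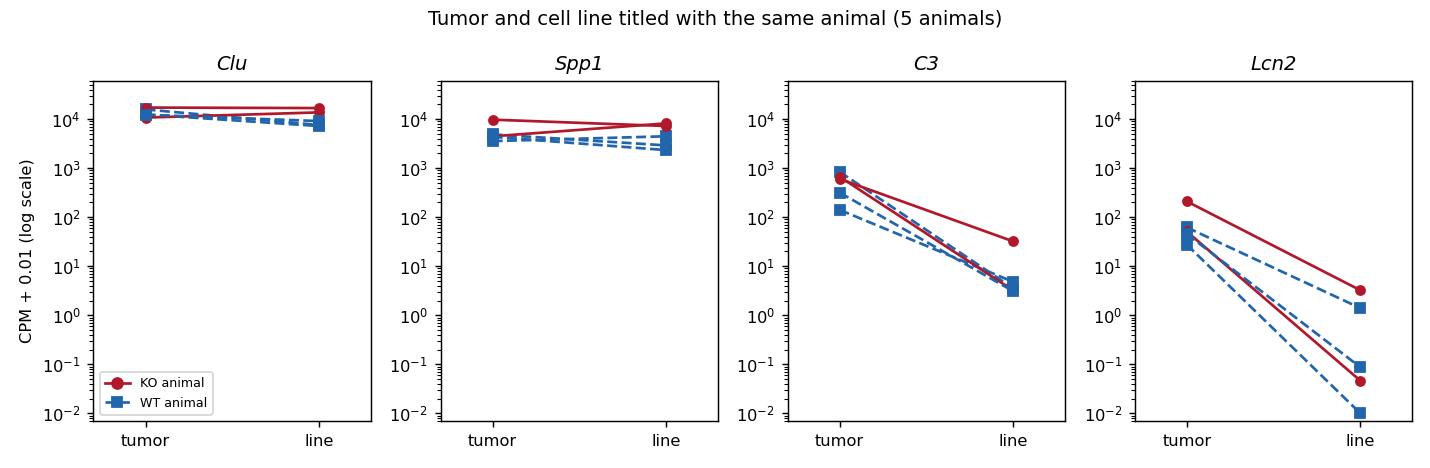
Clu, Spp1, C3 and Lcn2 in CPM + 0.01 (log axis) in the tumor (left) and the line (right) titled with the same animal; red solid lines are the 2 KO animals and blue dashed lines the 3 WT animals. Clu and Spp1 change by less than C3 and Lcn2 and in both directions, which the wide axis makes look nearly level. C3 and Lcn2 are lower in the line of all 5 animals.

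The other 6 genes were counted mainly in tumors. All 12 tumors lay above all 10 lines for Lcn2, Saa1, Saa3 and Hp, an order shown by 12.2% of the 18662 genes tested. Because this contrast chose the genes, nothing is read from that count. C3 failed this order through WT line 3 alone, and Saa2 through 4 KO tumors with 0 counts. Per length, in TPM computed over merged exons, the tumor medians were 12213 for Clu, 8501 for Spp1, 481 for C3, 238 for Lcn2, 226 for Saa3, 173 for Hp, 0.327 for Saa1 and 0.0880 for Saa2.

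The serum amyloid genes lie side by side on chromosome 7, within chr7:46711998-46715700 (Saa3, minus strand), chr7:46740497-46742980 (Saa1, minus) and chr7:46751790-46754313 (Saa2, plus). Saa3 (ENSMUSG00000040026.8) had 1732 to 11013 counts across the KO tumors, against 1532 to 5196 across the WT tumors. In lines it had 2 counts in KO line 3, 1 count in WT line 3 and 0 in the other 8. As levels, the KO tumors ran from 58.6 through a median of 183 to 423 CPM, against 53.6, 168, 167 and 82.0 CPM in the WT tumors. KO tumor 5 was as low as the lower WT tumors, and 6 of the 8 KO tumors lay above all WT tumors.

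Saa1 and Saa2 were near the limit of detection in tumors and had 0 counts in all 10 lines. Saa1 (ENSMUSG00000074115.5) had 2 to 22 counts in KO tumors, against 43, 16, 8 and 3 counts in WT tumors. Saa2 (ENSMUSG00000057465.5) had 0 counts in 4 KO tumors and 7, 1, 2 and 2 counts in KO tumors 3, 4, 5 and 7, against 32, 22, 4 and 2 counts in WT tumors. WT tumor 1 was the highest tumor for both genes and the lowest for Saa3, Lcn2 and C3. In the annotated transcripts Saa1 shares 4.67% of its 75-base stretches, the length of a read, with Saa2 and 0 with Saa3, and over the window before their starts Saa1 and Saa2 are 79.1% identical. How the counting treated shared reads is not given in the sources used here, so counts of this pair are uncertain.

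Lcn2 (ENSMUSG00000026822.14, chr2:32384633-32388252, minus strand) differed most between the genotypes in tumors among the 7 genes that passed the low-count filter. Its levels were 486, 51.2, 211, 166, 305, 269.9, 267 and 368 CPM in KO tumors 1 to 8, against 27.7, 61.9, 45.5 and 94.0 CPM in WT tumors 1 to 4. Apart from KO tumor 2, which fell among the WT tumors, every KO tumor exceeded every WT tumor. The means were 265 ± 131 CPM in KO tumors (SD, n = 8) and 57.3 ± 28.2 in WT tumors (n = 4). In lines Lcn2 had 1, 10, 14, 4 and 91 counts in KO lines and 0, 33, 418, 2 and 1 counts in WT lines. WT line 3, with 16.8 CPM, was the highest line.

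C3 (ENSMUSG00000024164.15, chr17:57203970-57228136, minus strand) varied widely among tumors. In KO tumors it had a lowest level of 544 CPM, a median of 883 and a highest of 3952, against 141, 843, 317 and 466.5 CPM in WT tumors. KO tumors 4 and 8, at 3952 and 2280.4 CPM, were the highest, and 4 of the 8 KO tumors lay below WT tumor 2. In lines C3 stood at 3.19, 5.32, 4.83, 12.3 and 32.1 CPM in KO lines, against 4.78, 3.54, 265, 3.08 and 0.345 CPM in WT lines. The median was 166 times higher in KO tumors than in KO lines and 111 times higher in WT tumors than in WT lines.

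Hp (ENSMUSG00000031722.10, chr8:109575128-109579172, minus strand) had a lowest level of 24.4 CPM, a median of 74.7 and a highest of 416 in KO tumors, against 27.3, 133, 147 and 83.1 CPM in WT tumors. The KO range enclosed the WT range, with KO tumor 4 at 416 CPM and KO tumor 8 at 149.8 CPM on top. In lines Hp had 3 to 21 counts in KO lines, against 20, 1, 221, 6 and 8 counts in WT lines. The median was 142 times higher in KO tumors than in KO lines and 312 times higher in WT tumors than in WT lines.

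The genotype comparison asks which mRNAs differ without microRNA-21, and in tumors none of these genes passed the test. With edgeR quasi-likelihood tests and Benjamini-Hochberg adjustment over 18125 genes, 0 of the 7 genes tested passed at an adjusted p under 0.05, against 2 of all genes (0.011%), Acat1 and Taf7. Saa2 was removed by the filter on low counts. At an unadjusted p under 0.05, Lcn2 and C3 were higher in KO tumors, 2 of 7 genes, against 8.34% of all genes. DESeq2 called 889 genes in the same tumors, Lcn2 among them.

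Lcn2 differed by 2.18 ± 0.50 between KO and WT tumors (log2 fold change ± SE, adjusted p 0.128 in edgeR). DESeq2 gave the same size at an adjusted p of 4.2e-04. Without KO tumor 2 edgeR gave 2.34 ± 0.37 at an adjusted p of 0.0341, in a fit where 82 of all genes passed (0.454%). KO tumor 2 was the KO tumor lowest in Lcn2, so leaving it out had to raise the difference, and that pass is no separate support. Over the other alternatives the change stayed between 1.89 and 2.54, with adjusted p up to 0.367. For C3 the log2 fold change was 1.64 ± 0.62 (adjusted p 0.225 in edgeR). For Saa3 it was 0.90 ± 0.47 (adjusted p 0.351).

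The other members showed small or imprecise differences between KO and WT tumors. For Clu the log2 fold change was -0.08 ± 0.27 and for Spp1 0.09 ± 0.46, with edgeR adjusted p of 0.911 and 0.940. Hp stood at 0.17 ± 0.70 with an adjusted p of 0.930. Saa1 stood at -1.19 ± 0.69 with an adjusted p of 0.409, at -0.16 ± 0.71 (adjusted p 0.949 in edgeR) without WT tumor 1, and at -0.30 ± 0.66 (adjusted p 0.852) with the mean of acinar markers as covariate. Without the low-count filter Saa2 stood at -3.30 ± 0.90 (log2), on 0 to 32 counts a tumor (adjusted p 0.214 in edgeR).

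**Figure D3:**
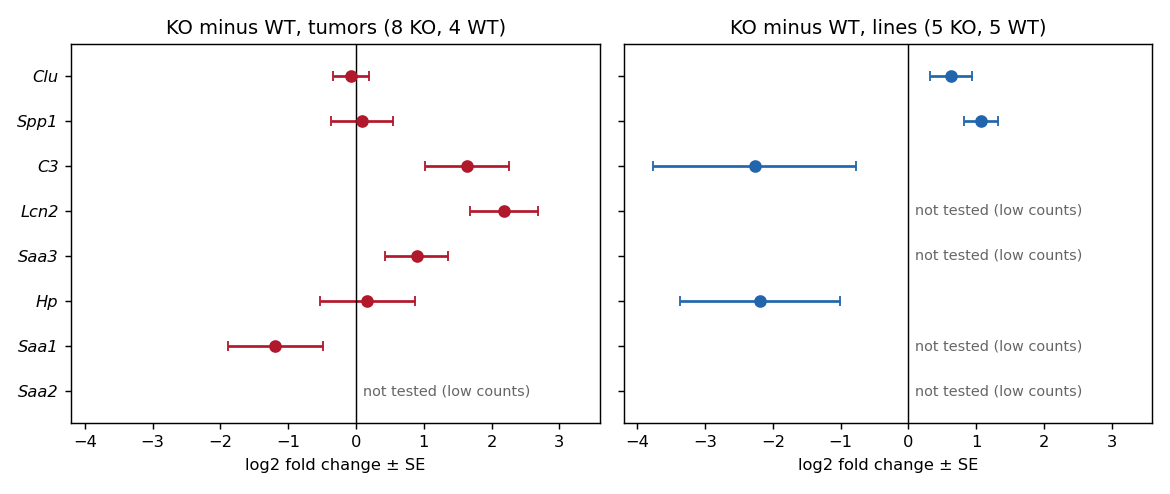
Log2 fold change of KO over WT with its SE in tumors (left) and lines (right), from edgeR fits over all genes. Lcn2 (2.18) and C3 (1.64) lie farthest to the right in tumors, Spp1 (1.07) in lines, and genes removed by the low-count filter are marked as not tested.

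KO tumors 4 and 8, the highest tumors for C3 and Hp, were also high in markers of other cells. Summed acinar markers (10 of 12 genes tested, Amy2a2 at 0 in all libraries) ran from 29.2 to 2495 CPM over the KO tumors, against 16.9 to 467 CPM over the WT tumors, and were highest in KO tumor 4 (2495) and KO tumor 8 (1189). Those 2 tumors also had the highest sums of macrophage markers (2092 and 1909.5 CPM, against 406 to 1085 in the other 10 tumors), adipocyte markers (498 and 407 CPM, against 57.5 to 256) and fibroblast markers (9488 and 12777 CPM, against 1982 to 8069). The other tumors did not keep this order for Hp and acinar markers. KO tumor 5 had 513 CPM of acinar markers and 31.7 CPM of Hp, while WT tumor 3 had 25.6 and 147 CPM. With the acinar list mean as covariate the log2 fold change of C3 was 0.85 ± 0.46 and that of Hp was -1.06 ± 0.68, and neither passed in edgeR (adjusted p 0.412 and 0.479). Without KO tumors 4 and 8 and WT tumor 4, C3 stood at 0.94 ± 0.50, Hp at -0.89 ± 0.53, Saa3 at 0.47 ± 0.51 and Lcn2 at 2.54 ± 0.59 in edgeR, with adjusted p of 0.555, 0.596, 0.766 and 0.367. Those 3 tumors had been singled out for acinar RNA in earlier results of these data; by the sums used here KO tumor 5 (513 CPM) was above WT tumor 4 (467 CPM) and KO tumor 3 (448 CPM) close to it. The part of macrophages, adipocytes and fibroblasts in these values was not tested.

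KO tumor 2, the tumor low in Lcn2, had the lowest sums of macrophage (406 CPM) and fibroblast markers (1982 CPM) of all tumors and the lowest acinar sum of the KO tumors (29.2 CPM). Its Spp1 was the highest of all libraries and its Saa3 the second highest of the tumors. Over all tumors the ductal list had a negative log2 fold change for 9 of 10 genes, while 51% of all genes were positive. Of these, 4 had an unadjusted edgeR p under 0.05 (8.39% of all genes) and 0 passed adjustment. Without KO tumors 4 and 8 and WT tumor 4, 7 of 10 were negative, 2 of them at an unadjusted p under 0.05. Markers of neutrophils, which store Lcn2 protein in their granules, summed to 125 to 829.1 CPM over the KO tumors, against 196 to 658 over the WT tumors, and their part in Lcn2 was not tested. Most of the highest sums was Ltf, lactoferrin (688 CPM in KO tumor 3 and 583 CPM in WT tumor 4). Without Ltf the sums were 53.9 to 368 CPM over the KO tumors, highest in KO tumor 4, against 74.5 to 157 CPM over the WT tumors.

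**Figure D4:**
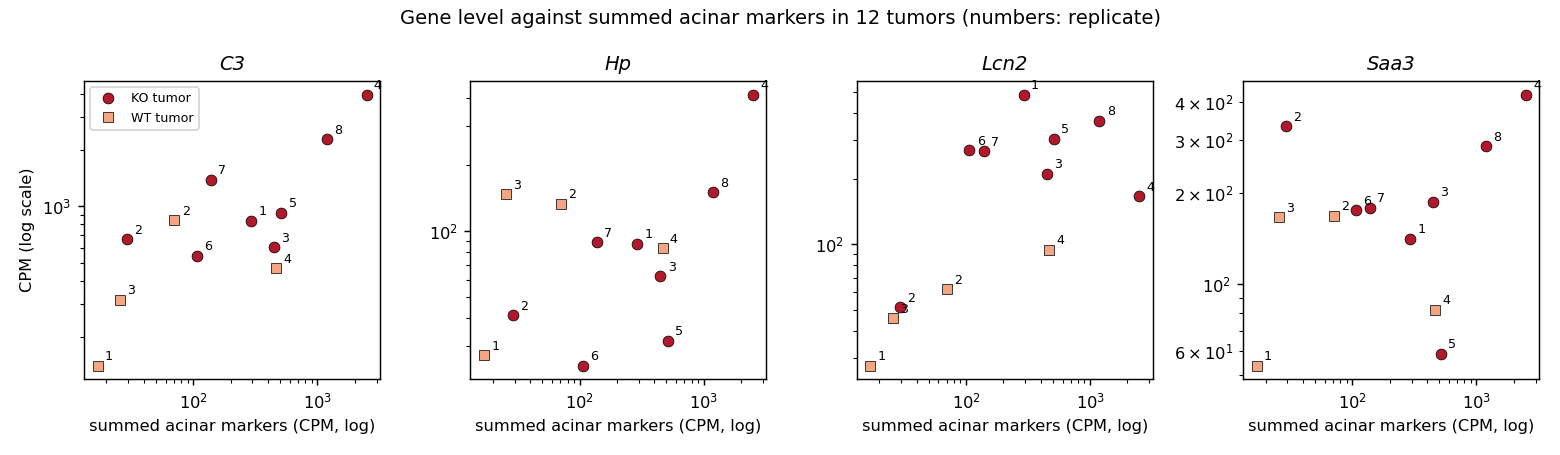
C3, Hp, Lcn2 and Saa3 (CPM, log axis) against the summed level of 12 acinar markers (CPM, log axis) in 8 KO tumors (circles) and 4 WT tumors (squares), numbered by replicate. KO tumors 4 and 8 lie at the upper right for C3 and Hp, while Lcn2 is at 166 CPM in KO tumor 4 and at 368 CPM in KO tumor 8, the second highest of the 12 tumors.

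Related genes were described by lists of complement, other acute-phase, inducer and receptor genes. The lists were chosen with earlier results of these data known, and not all of their genes encode plasma proteins. Of the complement list, 18 of 22 genes were tested in tumors, 16 had a positive log2 fold change and 0 passed, with a median of 0.77, beside 51% positive and a median of 0.010 over all genes. Without KO tumors 4 and 8 and WT tumor 4, 11 of 18 were positive (48.8% of all genes), with a median of 0.34. Masp1, a protease of the lectin pathway, had the smallest p of the list (2.96 ± 0.62, adjusted p 0.116 in edgeR), at 0.870 to 9.14 CPM over the KO tumors, against 0.180 to 1.19 CPM over the WT tumors. Next came Cd59a, which blocks the membrane attack complex (1.84 ± 0.51, adjusted p 0.147 in edgeR), and C1s1, a protease of the classical pathway (1.54 ± 0.52, adjusted p 0.196 in edgeR, and 0.88 ± 0.43 without those 3 tumors). Without KO tumor 2, 2 genes of the complement list passed in edgeR, Masp1 (3.12 ± 0.49) and Cd59a (2.01 ± 0.31), each at an adjusted p of 0.0341, while 82 of all genes passed there (0.454%), against 2 with all tumors. For both genes KO tumor 2 was the lowest KO tumor.

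Of the list of other acute-phase proteins, 15 of 20 were tested in tumors, 11 were positive and 0 passed. The median log2 fold change was 0.58, beside 51% positive and a median of 0.010 over all genes. Without KO tumors 4 and 8 and WT tumor 4, 11 of 16 were positive (48.8% of all genes), with a median of 0.24. A2m, the protease inhibitor alpha-2-macroglobulin, stood at 2.91 ± 0.76 (adjusted p 0.139 in edgeR), and at 3.09 ± 0.58 (adjusted p 0.0485 in edgeR) without KO tumor 2. It stood at 4.0 to 119 CPM in KO tumors, lowest in KO tumor 2, against 2.9, 6.3, 2.6 and 15.1 CPM in WT tumors. Hemopexin, Hpx, which binds free heme, had a negative value (-1.62 ± 0.67, adjusted p 0.253 in edgeR, and -0.67 ± 0.71 without KO tumors 4 and 8 and WT tumor 4), and Lrg1, a leucine-rich glycoprotein, stood at 0.81 ± 0.38 (adjusted p 0.308). The inducer list had 10 of 25 positive and a median of -0.07, yet its 3 genes of smallest p had positive values. They were Cebpd, a C/EBP factor (1.21 ± 0.30), Il6ra, the IL-6 receptor (1.25 ± 0.32), and Il6st, its signalling partner gp130 (0.81 ± 0.22), with edgeR adjusted p of 0.139, 0.139 and 0.145. For Cebpd the 8 KO tumors lay at 44.0 to 139.9 CPM and the 4 WT tumors at 20.5 to 45.3 CPM, which overlap by 1 tumor of each genotype. The receptor list had 14 of 24 positive and a median of 0.12. Its genes of smallest p had negative values: the integrin Itgb3 (-1.46 ± 0.32), the endocytic receptor Lrp2 (-2.91 ± 1.15) and Mmp9, a protease whose human form binds lipocalin 2 (-1.36 ± 0.55), with edgeR adjusted p of 0.121, 0.238 and 0.247. Lrp2 stood at 90.8 CPM in WT tumor 3 and at 0.07, 11.2 and 1.22 CPM in WT tumors 1, 2 and 4. The KO tumors had 0.513 to 10.6 CPM of Lrp2, so its value rests on WT tumor 3.

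In lines, again none of the genes passed. Of 14020 genes tested with edgeR, Cdip1 and Rnf167 passed (0.0143%), and 0 of the 4 genes tested were among them, the remaining 4 being filtered out for low counts. At an unadjusted p under 0.05 Spp1 was higher in KO lines, 1 of 4 genes, against 3.4% of all genes. The log2 fold change of Spp1 was 1.07 ± 0.25 (adjusted p 0.545 in edgeR and 0.0223 in DESeq2), and all alternatives lay between 0.97 and 1.26. Clu stood at 0.62 ± 0.31 with an adjusted p of 0.715.

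C3 and Hp were decided by 1 line. With all lines C3 stood at -2.27 ± 1.498 (log2 ± SE) and Hp at -2.19 ± 1.18, with edgeR adjusted p of 0.747 and 0.720. Without WT line 3 they stood at 1.98 ± 0.84 and 0.38 ± 0.72, with edgeR adjusted p of 0.369 and 0.848. Lcn2 was tested only under some alternatives, all of which included WT line 3, its highest line. Its change there ran from -1.77 ± 1.77 to -2.40 ± 1.64, with edgeR adjusted p of 0.634 or higher. No fit of the lines without WT line 3 tested Lcn2, so no direction is read from these values.

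WT line 3 (animal KPC204, with no tumor in the series) stood apart from the other 9 lines in a broad set of plasma protein genes. It had 265 CPM of C3, 16.8 of Lcn2 and 8.89 of Hp, against at most 32.1, 3.23 and 0.745 CPM in any other line. Albumin (Alb) stood at 131 CPM, against 0 to 3.65 CPM in the other lines, and transthyretin (Ttr) at 231 CPM, against 0.69 to 10.2. Of the acute-phase list Cp, the copper carrier ceruloplasmin, had 517 CPM (27.2 to 188 in the others), Lbp, which binds bacterial lipopolysaccharide, 113 CPM (9.45 to 54.9) and Hpx 23.9 CPM (0.29 to 10.1). Of the complement list Masp1 had 73.7 CPM (3.34 to 10.5) and C4b 33.5 CPM (0 to 3.48). This line was the highest of the 10 for 8 of 11 acute-phase genes and 7 of 11 complement genes that reached 1 CPM in any line, against 17.8% of 14172 genes overall.

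WT line 3 was also the highest line for most liver genes, though some were at or near 0 there. It was highest for 5 of 7 hepatocyte genes that reached 1 CPM in any line, against 17.8% of 14172 genes overall. The hepatocyte list summed to 1065 CPM there, against 77.4 to 493.4 CPM in the other lines, mostly through Apob (651 CPM, against 51.2 to 476). Cyp2e1 had 0 counts in all WT lines, and Saa1 and Saa2 had 0 counts in all lines. Fibrinogen Fgb had 0.48 CPM in WT line 3, its highest value among the lines. Its ductal keratin Krt8 (2159 CPM) lay within the range of the other lines (1993 to 3705), while Krt19 (691 CPM) was below them (2137 to 4315). Fibroblast markers summed to 16.9 CPM, the highest fibroblast sum of the lines, and macrophage markers to 9.46 CPM, the lowest macrophage sum of the lines. This line was singled out after its values were seen, and neither its origin nor its genotype could be checked from these counts, so the values for KO against WT lines rest on its label.

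**Figure D5:**
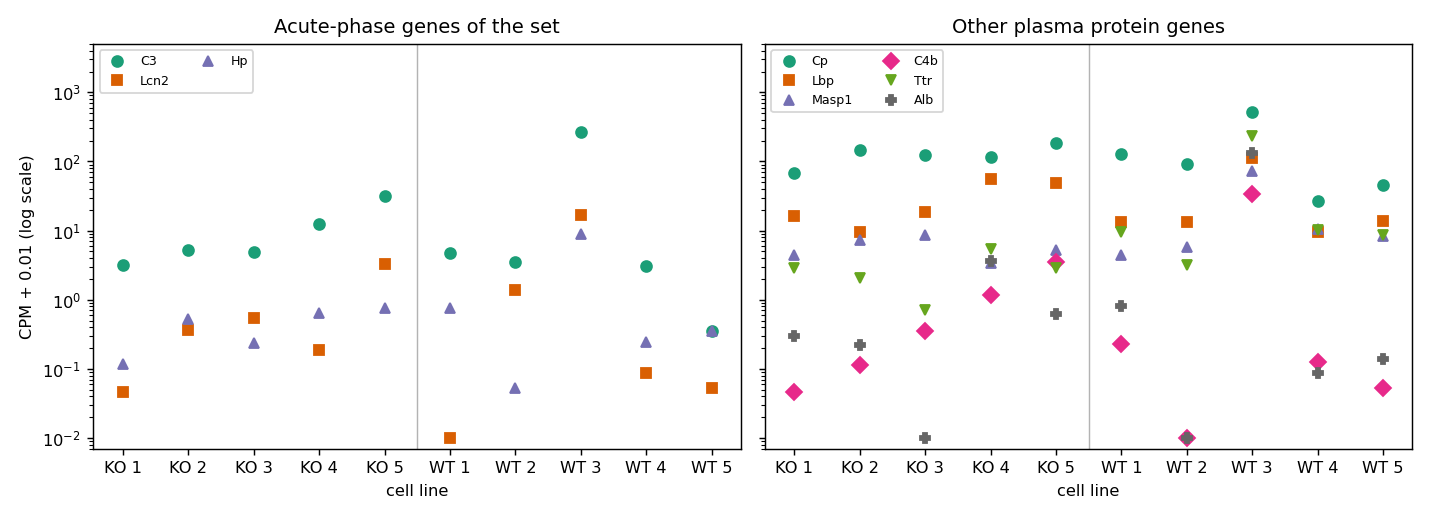
C3, Lcn2 and Hp (left) and 6 other plasma protein genes (right) in CPM + 0.01 on a log axis in KO lines 1 to 5 and WT lines 1 to 5. WT line 3 is the highest line for all 9 genes, with Alb at 131 CPM against at most 3.65 in any other line.

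The list counts in lines changed when WT line 3 was left out. All 6 tested acute-phase genes had a negative change, with a median of -0.79, beside 46.3% positive and a median of -0.03 over all genes, and 3 of 6 were negative without WT line 3, with a median of 0.09 (49.7% of all genes positive there). Hpx had -3.28 ± 0.99 (adjusted p 0.713 in edgeR) and -2.29 ± 0.85 without that line (adjusted p 0.352), while the metallothioneins Mt2 and Mt1 stood at -1.05 ± 0.54 and -0.53 ± 0.36. The complement list had 4 of 10 positive and a median of -0.27, and 7 of 10 positive with a median of 0.50 without WT line 3. Masp1 stood at -1.82 ± 0.76 with all lines and at -0.32 ± 0.35 without WT line 3, and the complement inhibitor Cfi at -1.97 ± 0.87 with all lines and at -1.27 ± 0.83 without WT line 3. The inducer list had 18 of 21 positive with a median of 0.16, and 17 of 21 without WT line 3. Its genes of smallest p were the cytokine Lif (0.58 ± 0.18), Nfkb1 (-0.67 ± 0.22) and Stat3 (0.53 ± 0.18). The receptor list had 8 of 14 positive and a median of 0.04, with C3ar1, the receptor of the C3 fragment C3a, at -1.44 ± 0.51, Lrp2 at -2.86 ± 1.33 and Cr1l at -0.21 ± 0.14. Lrp2 stood at 870 CPM in WT line 4, of animal KPC232, which also gave WT tumor 3. The other WT lines had 5.87 to 176 CPM of Lrp2 and the KO lines 2.17 to 89.9 CPM. None of these genes passed in edgeR, and the adjusted p of all of them with all lines were 0.713 or higher.

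Whether the KO difference in tumors differed from that in lines was tested in 1 fit of all libraries. Of 18662 genes 0 passed in edgeR (0%), while 1540 had an unadjusted p under 0.05 (8.25%) and DESeq2 called 67. Lcn2 had a tumor minus line difference of 4.27 ± 1.57 and C3 of 3.92 ± 1.67 (log2), with edgeR adjusted p of 0.473 and 0.541. Without WT line 3 the difference for Lcn2 was 0.97 ± 1.297 (adjusted p 0.919 in edgeR), for C3 -0.30 ± 1.00 and for Hp -0.15 ± 1.17, against 2.40 ± 1.38 for Hp with it. For Clu it was -0.66 ± 0.42 and for Spp1 -0.96 ± 0.55, with edgeR adjusted p of 0.710 and 0.673. Saa1, Saa2 and Saa3 could not be estimated, with lines at or near 0. Complement genes had 15 of 19 positive and acute-phase genes 13 of 15, with medians of 1.53 and 1.52, beside 53.4% positive and a median of 0.04 over all genes. Without WT line 3 they had 12 of 18 and 8 of 15 positive, with medians of 0.25 and 0.08, beside 50.9% of all genes. With all lines the inducers had 9 of 25 positive with a median of -0.09, and the receptors 15 of 24 with 0.28.

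Which genes varied together was computed on log2(CPM + 0.5) with two-sided permutation tests. Of 15 pairs in tumors, 0 passed after Benjamini-Hochberg adjustment. The highest was Saa3 with C3 (Pearson r 0.66, permutation p 0.0180, adjusted 0.150, and Spearman rho 0.56, permutation p 0.0632, adjusted 0.328), which stood at 0.67 without the 2 tumors farthest from the median of Saa3, at 0.54 with each genotype centred, at 0.46 within the KO tumors and at 0.40 without KO tumors 4 and 8 and WT tumor 4. C3 with Hp had r 0.64 (permutation p 0.0240, adjusted 0.150) and rho 0.55 (permutation p 0.0657, adjusted 0.328), and fell to 0.19 without WT tumor 1 and KO tumor 4, so it rests on those tumors. With each genotype centred, that pair had r 0.87 with an adjusted permutation p of 0.00285. Within the 8 KO tumors its r was 0.90, with an adjusted exact permutation p of 0.0331, and without KO tumors 4 and 8 and WT tumor 4 it was 0.29. Lcn2 with C3 had r 0.62 (permutation p 0.0299, adjusted 0.150) and rho 0.57 (permutation p 0.0600, adjusted 0.328), and 0.28 with each genotype centred. It had 0.27 without the 2 tumors farthest from the median of Lcn2. In the lines Clu with Spp1 had r 0.71 (permutation p 0.0232, adjusted 0.0697 over 3 pairs) and rho 0.52 (permutation p 0.134, adjusted 0.201), and 0.33 without KO lines 4 and 5.

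Genes whose level followed each member most closely were taken by Pearson r of log2(CPM + 0.5). The r values are a description over KO and WT libraries together, without centring by genotype, so they include any difference between the genotypes. Over 12 tumors and 10546 genes, C3 was followed by the complement genes C1ra (0.96) and C4b (0.96) and by Il6st (0.94). Lcn2 was followed by the transcription factor gene Hand2 (0.94), A2m (0.93) and Cd59a (0.92), and Hp by Fabp4, an adipocyte fatty acid carrier (0.96), then Pcif1 (0.91) and Rps27 (0.91). Fabp4 stood at 256 and 146 CPM in KO tumors 4 and 8, against 17.2 to 89.4 CPM in the other 10. Clu was followed by the desmosome gene Pkp3 (0.92), Pklr (0.91) and Fads2 (0.90). Saa3 was followed by Auh (0.87), Slc25a12 (0.87) and Sh3bp5 (0.86), and Spp1 by Tmub1 (0.91), Zfp322a (0.90) and Park7 (0.89). Over 10 lines and 9504 genes, Clu was followed by the lipid-transfer gene Stard10 (0.92), Mavs (0.92) and Ccdc97 (0.90), Spp1 by Tceanc2 (0.91), Tmppe (0.91) and Pygb (0.89), and C3 by Gnptg (0.96), Nsun4 (0.94) and Adgra3 (0.94). The r values of C3 in lines include WT line 3 and were not computed without it. That line had 265 CPM of C3, against 0.345 to 32.1 CPM in the other lines.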

How the data were processed

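RNA of 12 tumors and 10 lines was sequenced as single-end reads of 75 bases from stranded mRNA libraries, per the labels' protocols. The deposited values are whole read counts per gene. Per the submitters' processing notes the tools were bcl2fastq 1.9.0, Trim Galore and STAR, on mm10; the counting tool, its strand setting and annotation are not given in the sources used here. Symbols, positions, exon lengths and 3′ UTRs came from GENCODE vM21 and matched 53237 of 53342 gene IDs. Promoter and microRNA sequences came from RefSeq tables of GRCm38.p6. Mature microRNA is not measured by these libraries.

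KO and WT were compared in R 4.3.3 by quasi-likelihood tests of edgeR 4.0.16 (robust fit, TMM scaling, filterByExpr for low counts), and p values were adjusted by Benjamini-Hochberg over all genes tested. Tumors and lines were fitted apart, and their difference in 1 fit of all libraries. Tested on simulated data, these fits recovered part of the changed genes, more at larger changes. Levels were computed in Python 3 with pandas, as CPM with TMM factors from all libraries. TPM divides each count by merged exon length. Correlations used 100000 permutations, or all of them for the 8 KO tumors. Titles place each library in a different animal within its material. No 2 libraries matched (smallest chi-square per degree of freedom 44.9).

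The members and lists were chosen with earlier results of these data known. The named genes are the 8 members, the 3 genes of smallest p per pathway list and comparison, and the 3 genes most like each member at a mean of at least 10 CPM, and genes named for WT line 3 and for tumors set apart were picked after their values were seen. One gene that this rule names is not reported here. Alternatives were RLE factors, other filters, DESeq2 1.42.0, limma-voom 3.58.1, an acinar covariate, all libraries in 1 fit, an animal block and leaving out libraries. Neutrophil sums without Ltf, list counts without WT line 3, without KO tumor 2 and without the 3 tumors named for acinar RNA, and correlations without those 3, were added after seeing the data.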

Additional observations from a re-analysis of the deposited data

Results flagged for a closer look

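Clu in WT tumors was flagged because WT tumor 1, at 15790.3 CPM, lay far above the other 3, which stood at 12324 to 12787 CPM. The same tumor had the highest Saa1 and Saa2 and the lowest C3, Lcn2 and Saa3 of all tumors. Saa2 in KO tumors was flagged because KO tumor 3, at 0.218 CPM (7 counts), lay far above the other 7, which stood at 0 to 0.0677 CPM. Of 26 groups tested, 2 were flagged, and chance flags about 1 group in 20.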

How the results depend on the processing

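The counts of genes called moved most with the tool. DESeq2 called 889 in tumors, 46 in lines and 67 for the tumor minus line difference, against 2, 2 and 0 in edgeR. In tumors limma-voom called 4, all libraries in 1 fit 40, and leaving out KO tumors 4 and 8 and WT tumor 4 left 0. In lines all libraries in 1 fit called 5. Leaving out 1 library gave 2 to 82 calls in tumors (82 when KO tumor 2 was left out, 57 for WT tumor 2, 6 for WT tumor 4, 4 for KO tumor 8), 0 to 2 in lines and 0 to 1 for the difference. The lines had 2 calls, the same 2 genes, only without WT line 3 and had 1 without WT line 4, and the difference had 1 without KO line 2. Signs of log2 fold changes turned as follows when 1 library was left out. In tumors Clu ran from -0.19 to 0.027 (positive when KO tumor 6 or WT tumor 1, 0.024, was left out), Spp1 from -0.19 (KO tumor 2) to 0.25, and Hp from -0.52 (KO tumor 4) to 0.46, with -0.14 for WT tumor 1. In lines C3 ran from -3.11 to 1.98 and Hp from -2.51 to 0.38, positive only when WT line 3 was left out. For the difference C3 ran from -0.30 to 4.78 and Hp from -0.15 to 2.72, negative only when WT line 3 was left out, and Lcn2 from 0.97 without that line to 5.92. Limma-voom turned Spp1 (-0.18) and Hp (-0.16) in tumors and C3 (0.51) in lines, and Hp in tumors was -1.06 with the acinar covariate and -0.89 without the 3 tumors. The causes were not tested. Of 15 pairs of members in tumors, 1 passed with genotypes centred and 1 within the KO tumors, against 0 as reported. CPM by library total alone moved no group mean by more than its SD. KO and WT came from different animals, so the genotypes could not be paired, and replicate numbers follow accession order only. With the animal as a replicate block in the difference (consensus correlation 0.287), 0 genes passed. Saa1, Saa2, Lcn2 and Saa3 in lines are limited by counts of 0 or near 0.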
